A study of Drosophila melanogaster with 3 samples.

Results

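The X chromosome held 427 of the 2415 thresholded FoxP regions mapped in whole Drosophila melanogaster prepupae. They are all regions on X in the authors' thresholded dm6 list. A further 1968 regions lay on the autosomes and 20 on the mitochondrial genome. Mitochondrial regions were left out of the shares and medians compared, but they still take places in ranks and in counts of best-ranked regions. FoxP, also called fd85E, is a forkhead transcription factor, the only FOXP-type gene of the fly, and such factors bind DNA through a winged-helix domain. The flies came from 1 transgenic line that expressed FoxP with a C-terminal eGFP tag, and anti-GFP antibody was used for the precipitation. Both sexes were pooled in each of 3 biological replicates, which form 1 group with no other genotype, treatment or time. The age of the animals is unknown in the labels, and the regulatory DNA that drives the transgene is not stated there. Because whole animals were used, the lists do not tell in which tissue a region was occupied.

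The X is a special chromosome in flies. Males carry a single copy, and the dosage compensation complex, which contains the roX RNAs and the acetyltransferase encoded by mof, raises its transcription in males. The X also carries genes used in neurogenesis, in the ecdysone response of metamorphosis and in sex determination. Each deposited region has a position, a summit, which is the base where the authors placed the top of the signal, and a signal value. The signal value is a score with no stated scale, so it was compared only within a list. In the thresholded list the X values ran from 134 to 1867, with a median of 191.

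The strongest X regions lay near genes of varied roles. The first lay at chrX:2703715-2704041, 22 bp upstream of the start of Ugalt (FBgn0024994), which encodes a Golgi transporter of UDP-galactose. Its signal value was 1867 in the pooled list, and 614, 684 and 571 in replicates 1, 2 and 3. It ranked 21st, 1st and 9th in the 3 replicate lists, so all 3 placed it near the top. The next 3 lay in introns, of CG32772 with a value of 1000 (chrX:4910228-4910515), of the nuclear hormone receptor gene Hr4 with 873 (chrX:1951792-1952033), and of CG3726 with 832 (chrX:5918794-5919050). The Hr4 product acts in the ecdysone response at the start of metamorphosis. The promoter of Gapdh2, a glycolytic enzyme gene, followed with 732 (chrX:15867868-15868103). The promoter of ph-p, which encodes the Polycomb group protein polyhomeotic, had 729 (chrX:2137230-2137485). Of the 20, 8 were at promoters, 8 in introns and 4 in neither of these, outside genes.

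The bases within 50 bp of the summit are shown on the + strand of dm6. They are given for the 4 strongest X regions of the promoter class and the 4 strongest of the intron class. These have the most signal within their class on X, and they allow the letters under the summit to be read. Capitals mark a forkhead match, TGTTTAC or TATTTAC on either strand.
Ugalt, promoter, chrX:2703824-2703924: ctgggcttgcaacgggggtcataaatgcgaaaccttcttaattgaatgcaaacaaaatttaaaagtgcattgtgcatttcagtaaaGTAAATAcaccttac
Gapdh2, promoter, chrX:15867912-15868012: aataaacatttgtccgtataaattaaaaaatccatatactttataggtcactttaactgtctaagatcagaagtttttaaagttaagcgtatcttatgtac
ph-p, promoter, chrX:2137258-2137358: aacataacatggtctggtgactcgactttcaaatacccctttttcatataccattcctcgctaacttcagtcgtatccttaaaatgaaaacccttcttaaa
CG4586, promoter, chrX:6969431-6969531: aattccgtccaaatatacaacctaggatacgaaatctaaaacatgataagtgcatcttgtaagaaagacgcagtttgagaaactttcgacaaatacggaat
CG32772, intron, chrX:4910328-4910428: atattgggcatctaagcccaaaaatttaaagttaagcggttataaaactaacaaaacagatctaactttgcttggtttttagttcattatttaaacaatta
Hr4, intron, chrX:1951863-1951963: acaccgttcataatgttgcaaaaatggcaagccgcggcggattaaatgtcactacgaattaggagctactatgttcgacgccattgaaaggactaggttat
CG3726, intron, chrX:5918865-5918965: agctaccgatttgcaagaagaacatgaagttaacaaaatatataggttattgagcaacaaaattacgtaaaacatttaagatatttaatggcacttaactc
NFAT, intron, chrX:13640445-13640545: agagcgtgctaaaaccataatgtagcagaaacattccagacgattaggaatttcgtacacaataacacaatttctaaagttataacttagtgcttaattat
The Ugalt window held 1 forkhead match, and the other 7 windows held none of these letters. None of the 8 windows held GAGAG, CACACACA or TATCGATA either. Their GC content ran from 25.7% at Gapdh2 to 43.6% at Hr4.

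All 3 replicates gave these regions high values. CG32772 had 325, 367 and 294 in replicates 1, 2 and 3, and the Hr4 intron had 229, 352 and 284. CG3726 had 277, 284 and 268, and Gapdh2 had 287, 208 and 236. The values of different lists are not on a shared scale, so ranks were used to set replicates side by side. These ranks also count mitochondrial regions, of which the lists of replicates 1, 2 and 3 held 25, 0 and 20. How far this shifted single ranks was not tested. Hr4 ranked 80th, 16th and 30th, and Gapdh2 46th, 78th and 40th. The ph-p promoter region had 241, 306 and 196 and ranked 71st, 25th and 64th. ph-p has a near-identical tandem copy, ph-d, whose own promoter region had a pooled value of 255. Reads of such copies may be placed at either one, and the sources used here do not give how such reads were treated.

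The other strong X regions lay near genes of many roles. Regions outside genes near CG4004 had 647 and 628. An intron region of NFAT, a transcription factor of the calcineurin pathway, had 606. An intron region of Zw, the glucose-6-phosphate dehydrogenase gene of the pentose phosphate pathway, had 591. CG4586 followed with 564 at its promoter, and a region 4690 bp upstream of Act5C, a cytoplasmic actin gene, with 561. LPCAT, an acyltransferase of phospholipid metabolism, had 556 in an intron, and the tyrosine phosphatase gene Ptpmeg2 had 547 at a promoter. The 6 others were the promoters of TRAM, CG3009 and Hexo2, introns of the kinase gene Tlk and of norpA, the phospholipase C of phototransduction, and a region upstream of CG17896, with values from 483 to 531. All 20 were held by all 3 replicates, where held means that the region overlaps, by at least 1 bp, one of the 2415 best-ranked regions of a replicate. Their worst rank was 380 in replicate 1, 147 in replicate 2 and 146 in replicate 3. They were narrow, with a median width of 226 bp and a range of 105 to 338 bp, while 90.6% of X regions and 92.1% of autosomal regions had the common width of 416 bp.

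**Figure D1:**
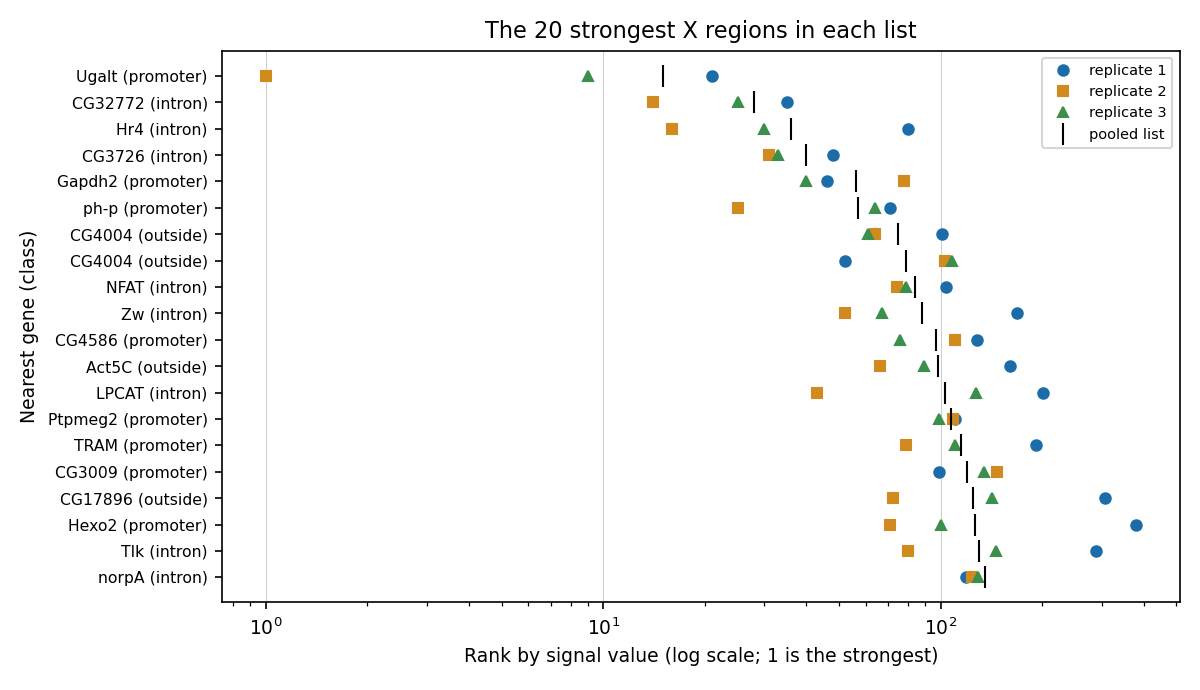
Rank by signal value (log scale, 1 is the strongest) of the 20 strongest X regions in the list of each replicate and in the pooled list. Each row is a region, named by the protein-coding gene that starts nearest and by its class. Ugalt ranked 1st in replicate 2, and Hexo2 had the worst rank, 380 in replicate 1. Ranks count all regions of a list, mitochondrial ones included.

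At the weak end of the list, the 3 X regions just inside the threshold were an intron region of Hr4 with 134.4, a region of rudhira with 134.5 and one of Zdhhc8 with 134.2, which was the last of the 2415. The 3 X regions just below it in the pooled list lay near CG12985, NFAT and sdt, with values from 133.9 to 134.2. The values on both sides of the threshold differed by less than 1 unit.

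The X carried about as many regions as its length. It held 17.8% of the 2395 regions on chromosome arms (95% Clopper-Pearson interval 16.3 to 19.4, counting error only), against 17.6% of arm length, 15.7% of protein-coding genes and 16.5% of the 29978 regions of the pooled list on arms. That is 18.1 regions per Mb on X and 17.8 per Mb on the autosomes. The thresholded list took 8.62% of the pooled regions on X and 7.99% of those on all arms. Among the arm regions in the best 100 of the pooled list the X share was 14.8% (12 of 81, interval 7.90 to 24.4). It was 19.6% for the best 300 (55 of 281, 15.1 to 24.7) and 17.7% for the best 1000 (173 of 980, 15.3 to 20.2). These intervals overlap.

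The replicates did not give X the same share. Of the 2415 best-ranked regions of each replicate, 367, 437 and 476 lay on X in replicates 1, 2 and 3, which is 15.4%, 18.1% and 19.9% of the arm regions (mean 17.8% ± 2.28, SD, n = 3). Replicate 1 was the lowest and replicate 3 the highest. The spread of 4.52 percentage points between replicates on X compares with 0.706 to 1.89 points on the 4 large autosomal arms. In the whole replicate lists the X share was 14.7%, 15.6% and 18.5%. On a log2 scale the density of X over that of the autosomes was −0.23, 0.05 and 0.22, so the direction changed between replicates (exact 2-sided sign permutation over the 3 replicates, p = 1). With 3 replicates this exact test cannot go below p = 0.25.

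The signal of the X regions moved in the same order. Over the thresholded regions the median value of X divided by that of the autosomes was 0.991 in the pooled list. In the matching regions of the replicate lists it was 0.920, 0.998 and 1.06 in replicates 1, 2 and 3. The X medians were 70.2, 68.2 and 60.7, and the autosomal medians 76.3, 68.3 and 57.3. The mean log2 ratio over replicates was −0.01 ± 0.10 (SD, n = 3; exact sign permutation, p = 0.75), so no difference in signal between X and autosomes exceeded the spread between replicates. The mix of males and females in each replicate is not in the labels, and males have fewer X copies than females. Each replicate list held 1 or 2 regions on the Y chromosome. Replicate lists also differed on the mitochondrial genome, with 25, 0 and 20 regions. The part of these in the X result was not tested.

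**Figure D2:**
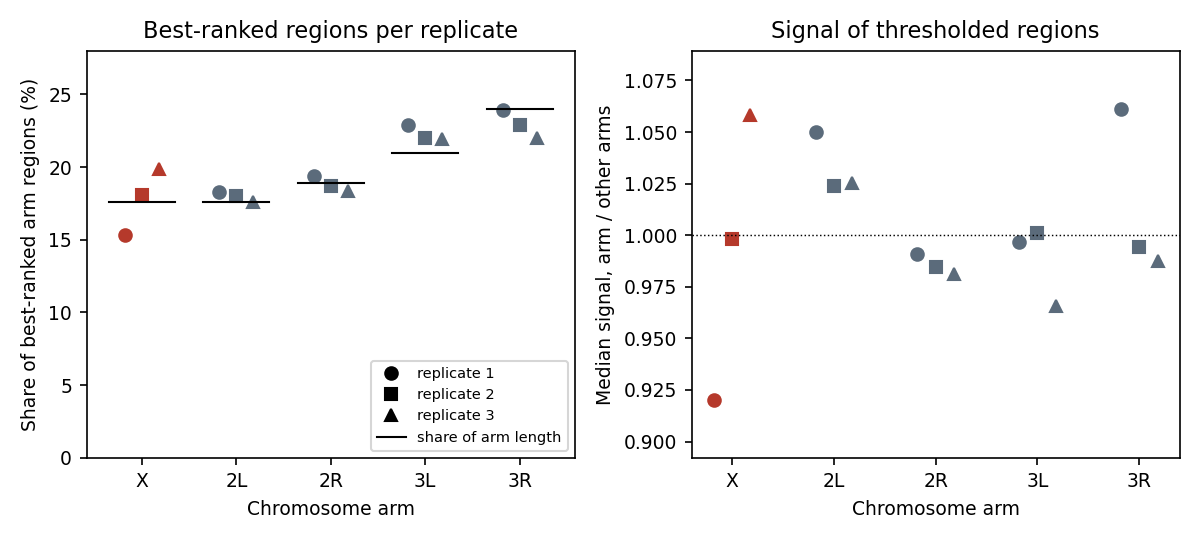
Left, share of each replicate's 2415 best-ranked regions that lay on each chromosome arm (percent, arm regions only), with the arm's share of length as a black line. Right, median signal value of thresholded regions on an arm divided by that of all other arms, in each replicate list. X points are red and spread from 15.4% to 19.9% on the left and from 0.920 to 1.06 on the right.

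Most X regions were found by all 3 replicates. Among the 427, 258 (60.4%, interval 55.6 to 65.1) were held by all 3, 112 by 2, 53 by 1 and 4 by none. On the autosomes 58.8% were held by all 3, and over all arms 59.1%, so the X share was near the background. Some thresholded regions overlap each other and share their support, 22 of 427 on X and 148 of 1968 on the autosomes. Among the regions that overlap no other, all 3 replicates held 58.8% on X and 55.9% on the autosomes. The pooled list contains the reads of all 3 replicates, so this support is not independent of the call. The 4 regions held by none lay near CG7884, cin, unc-119 and Pde9, with pooled values from 137 to 148, and each had an overlapping region further down every replicate list.

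Replicate by replicate, X regions were held less often than autosomal ones in replicate 1 and more often in the others. Replicate 1 held 75.4% of X regions and 82.2% of autosomal ones, replicate 2 held 86.7% and 82.7%, and replicate 3 held 84.1% and 79.0%. The difference of X minus autosomes was −6.81, 3.98 and 5.11 points (mean 0.761 ± 6.58, SD, n = 3; exact sign permutation, p = 1). With the best-ranked regions taken within X and within the autosomes separately, a choice made after seeing these values, replicate 1 held 81.7% of X regions and 81.2% of autosomal ones. The same change gave 85.7% and 82.6% in replicate 2, and 80.6% and 80.1% in replicate 3. Replicates 2 and 3 without replicate 1 held 60 X regions (14.1%), against 8.94% on the autosomes. Replicate 1 alone held 12 (2.81%), against 5.18%.

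Absence from a replicate was rare on X. In replicate 1, 13 X regions had no overlapping region at all (3.04%, against 1.17% of autosomal regions), in replicate 2 there was 1 (0.234%, against 0.457%), and in replicate 3 there was none (against 0.305%). Of these 13, 10 were at promoters and 3 in introns, and their pooled values ran from 135 to 240. Spearman correlations of signal values across the X regions were 0.62 between replicates 1 and 2 (n = 413 regions), 0.64 between 1 and 3 (n = 414) and 0.70 between 2 and 3 (n = 426). On the autosomes they were 0.60, 0.62 and 0.63. These are descriptions across regions that share a library and a control.

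**Figure D3:**
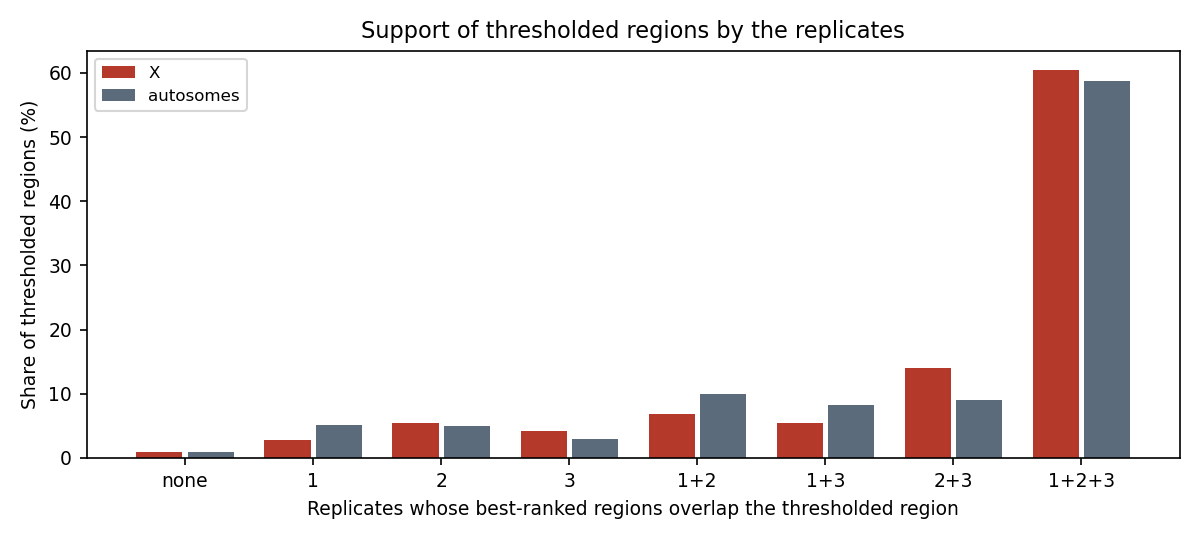
Share (percent) of the 427 X and the 1968 autosomal thresholded regions by the replicates whose best-ranked regions overlap them. Regions held by replicates 2 and 3 only made up 14.1% on X and 8.94% on the autosomes, and those held by all 3 made up 60.4% and 58.8%.

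The X regions lay in introns more often and outside genes less often than the autosomal ones. A summit was called promoter when a protein-coding gene started within 500 bp of it. Other summits were assigned, in this order, to UTRs at the 5′ end, coding exons, UTRs at the 3′ end, introns, or the space outside protein-coding genes. Introns held 196 X summits (45.9%, interval 41.1 to 50.8) against 36.3% of autosomal ones. Promoters held 179 (41.9%, interval 37.2 to 46.8) against 46.2%, and 45.5% over all arms. Outside protein-coding genes lay 40 (9.37%, interval 6.78 to 12.5) against 16.2%. The remaining X summits were 7 in 3′ UTRs, 4 in 5′ UTRs and 1 in a coding exon, of bif. The 3′ UTR share was 1.64% on X and 0.356% on the autosomes, which also had 7. The 7 on X include overlapping regions within Lsd-2 that match the same replicate regions.

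The same directions appeared in every replicate. Among each replicate's best-ranked regions the intron share of X exceeded that of the autosomes by 10.0, 9.03 and 5.95 points in replicates 1, 2 and 3 (mean 8.33 ± 2.12, SD, n = 3). The share outside genes differed by −6.11, −5.78 and −5.29 points, and the promoter share by −4.92, −5.35 and −2.61 points. Each of these had 1 sign in 3 of 3 replicates and reached the smallest p the exact sign permutation allows, 0.25, which does not pass 0.05. The number of such measures compared between X and autosomes was 19, and no adjusted value of this test can pass either. The promoter difference in the thresholded list, −4.32 points, became −8.33 with a 200 bp promoter window and −7.24 in the better-ranked 1207 regions of the list. The difference outside genes, −6.79 points, became −4.32 in the regions held by all 3 replicates.

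The bases of X and of the autosomes also differ in these classes, and the part of this in the summit shares was not tested. Introns made up 41.2% of X bases and 38.9% of autosomal bases in this scheme, and bases outside protein-coding genes 26.8% and 30.7%. For 3′ UTRs these shares were 6.00% and 4.21%. The intron share of summits divided by the intron share of bases was 1.12 on X and 0.903 to 0.986 on the 4 large autosomal arms. The same ratio outside genes was 0.350 on X and 0.463 to 0.606 on those arms. At promoters it was 3.81 on X and 3.82 to 4.17 on those arms. The X protein-coding genes had a median length of 2521 bp, against 2102 bp on the autosomes.

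**Figure D4:**
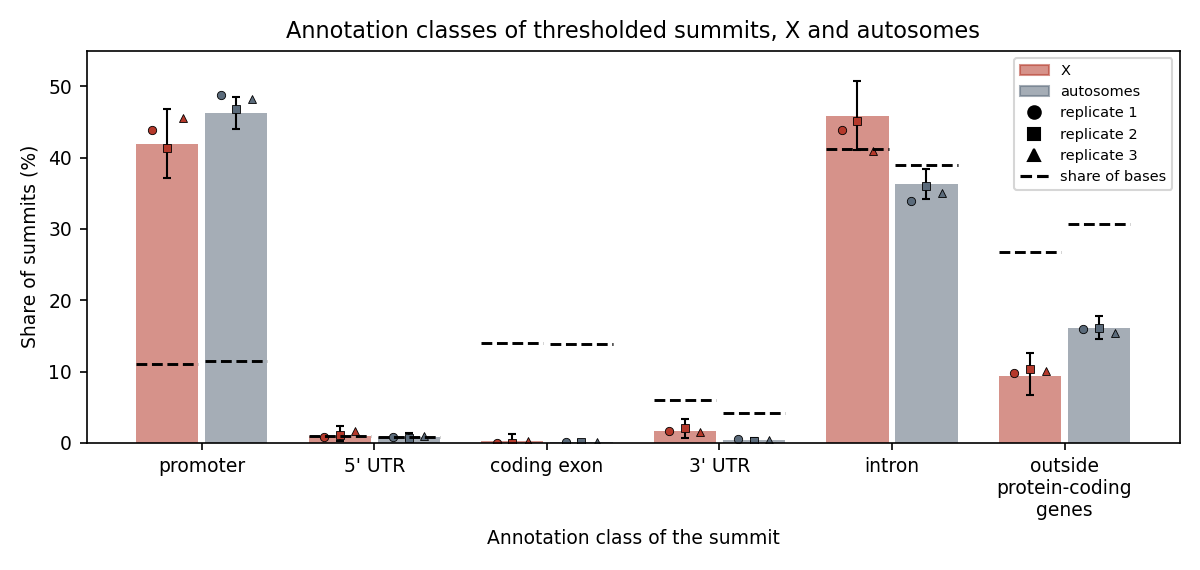
Share of thresholded summits (percent) in each annotation class on X (red) and on the autosomes (grey), with 95% Clopper-Pearson intervals. Points are the same shares in each replicate's best-ranked regions, and dashed lines give the share of bases. In all 3 replicates the intron share is higher and the outside share lower on X.

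Median signal was similar in the 3 large classes on X, and among these 3 support was highest outside genes. The median signal value was 193 at promoters, 186 within introns and 192 outside genes, beside 199, 189 and 186 on the autosomes. All 3 replicates held 59.2% of X promoter regions, 57.7% of X intron regions and 72.5% of X regions outside genes (interval 56.1 to 85.4). On the autosomes these shares were 60.5%, 57.6% and 56.6%. The 7 summits in 3′ UTRs had a median of 223 and the 4 in 5′ UTRs one of 336. All 3 replicates held 6 of those 7 and all of those 4. Differences in support between classes, or between X and autosomes within a class, were not tested.

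X promoter summits lay by starts of 2 or more genes less often than autosomal ones. Of the 179, 26 (14.5%, interval 9.71 to 20.6) lay within 500 bp of starts of 2 or more protein-coding genes, against 246 of 910 (27.0%, interval 24.2 to 30.04) on the autosomes. The 4 large autosomal arms ranged from 25.8% to 28.9%. In the best-ranked regions of replicates 1, 2 and 3 the X shares were 13.0%, 19.9% and 13.4%, and the autosomal shares 24.8%, 33.2% and 26.8%. The difference was −11.8, −13.3 and −13.4 points (mean −12.8 ± 0.923, SD, n = 3; lower in 3 of 3; exact sign permutation, p = 0.25, the smallest it can give). This measure was chosen after the values had been seen. With a 1000 bp window the difference in the thresholded list, −12.5 points, became −7.51.

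Close gene starts are also somewhat rarer on X. Another gene's start lay within 1000 bp of a start for 39.6% of X protein-coding genes and 43.5% of autosomal ones. Of the bases within 500 bp of a start, 11.2% on X and 13.3% on the autosomes were that close to 2 or more genes. The part of this in the lower share of shared promoters was not tested. Of the 26 shared X summits, 24 (92.3%) lay by genes on opposite strands, and 230 of 246 (93.5%) did on the autosomes. Of the 26, 2 lay at the same gene pair, htk and shop. The strongest lay between a start of Stt3A and a start of bves, within the span of bves. It had a pooled value of 469 and 172, 183 and 129 in the replicates. Stt3A encodes a subunit of the oligosaccharyltransferase that glycosylates proteins, and bves a membrane protein of the Popeye family. The next lay between a start of Fum1 and a start of ND-ASHI, within the span of Fum1. Fum1 encodes a fumarase of the citric acid cycle and ND-ASHI a subunit of respiratory complex I. This region had 448 pooled and 149, 155 and 128 in the replicates. These examples were picked after their values had been seen.

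The X promoter summits also lay somewhat further from starts. The median distance was 177 bp on X and 125 bp on the autosomes, and 53 of 179 X summits lay within 100 bp of a start, against 360 of 910. Upstream positions made up 76.0% on X and 78.1% on the autosomes. Intron summits lay at a median of 2633 bp from the nearest start on X and 3166 bp on the autosomes. Of the X intron summits, 30 (15.3%) lay more than 10000 bp from any start, and 17.6% of the autosomal ones did.

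Of the 2196 protein-coding genes on X, 183 (8.33%) had a summit within 500 bp of a start, against 9.10% on the autosomes and 8.98% on all arms. By replicate the X share minus the autosomal share was −2.08, −1.02 and 0.900 points, so its sign was not the same in all replicates (exact sign permutation, p = 0.5). Of the X genes 212 (9.65%) had a summit between their ends, against 7.29% on the autosomes. Genes with such a summit were long, with a median of 13817 bp on X.

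The 5 X genes with most summits between their ends were long. A summit was counted for each gene that spans it, also where another gene starts nearer. kirre, which encodes an immunoglobulin-domain protein of myoblast fusion and spans 394149 bp, held 11 summits, 9 of them intronic, with values from 140 to 306. The 2 promoter summits within kirre lay at starts of other genes, Syx4 and CG3603, and some intron summits lay also within CG32795. CG1677 held 10 over 124709 bp, all of them nearest to a start of another gene, such as unc-119, brk or CBP. Raf, the kinase gene of the MAP kinase pathway, held 9 over 48405 bp, with values from 135 to 403, and 6 of the 9 regions were held by all 3 replicates. Among those 6, 2 regions overlap and match the same replicate regions, which leaves 5 distinct matches. Tlk, the Tousled-like kinase gene, and CG43658 each held 7. Per 10 kb of gene this was 0.279 summits for kirre, 0.802 for CG1677, 1.86 for Raf, 1.00 for Tlk and 0.667 for CG43658, so Raf was the densest of these 5.

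The X regions were spaced much like the autosomal ones. The median distance between neighbouring summits was 19319 bp on X and 18853 bp on the autosomes, and 37.6% and 36.6% of neighbouring pairs lay within 10000 bp. By replicate the difference in that share was −3.46, 1.54 and 6.90 points (exact sign permutation, p = 0.75). This follows the order of the X counts, with replicate 1 lowest and replicate 3 highest. Joining neighbours within 10000 bp left 171 X regions alone, 64 pairs and 19 runs of 4 or more regions. The longest run had 10 regions in 17273 bp over CG2865 and Raf. The next had 7 in 16005 bp within CG1677, where the nearest starts are those of unc-119 and of brk, a repressor of Dpp targets. There were 4 runs of 5 regions. Among them was a run over CHES-1-like, another gene of the forkhead family, with values from 147 to 404. All 3 replicates held 2 of its 5 regions.

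Along the chromosome the regions thinned toward the centromere end. In 5 segments of equal length from the telomere end, there were 113, 116, 81, 79 and 38 regions. The last segment also had the fewest protein-coding genes, 333 against 434 to 517 in the others. Per 100 protein-coding genes there were 26.04, 24.7, 18.3, 15.3 and 11.4 regions, so the fall was still seen relative to gene number. Each replicate had fewest best-ranked regions in the last segment, with 32, 44 and 37. The longest stretch without a region spanned 861357 bp between DIP1 and l(1)G0196 in that segment, and held 30 protein-coding genes and 13 regions of the pooled list. Stretches of 400767 bp between nej and RhoU and of 396445 bp between Cyp6v1 and Stt3A followed.

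**Figure D5:**
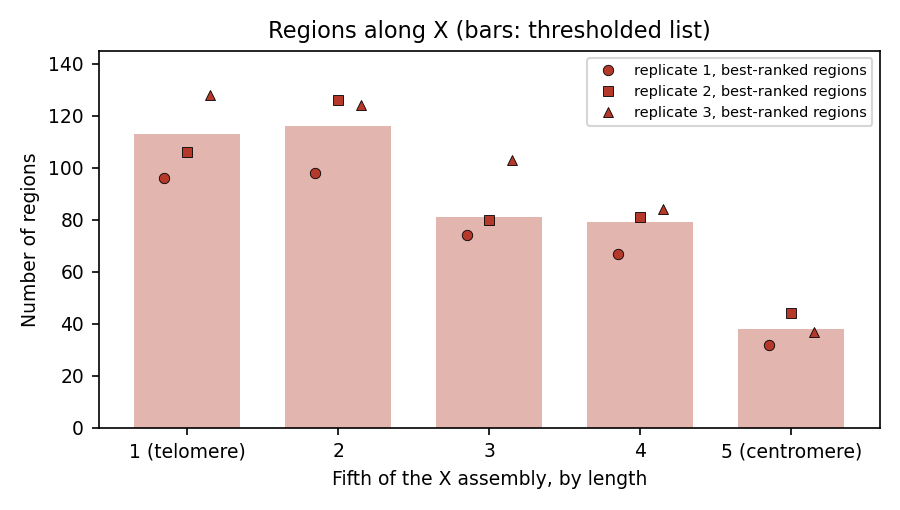
Number of thresholded regions (bars) and of each replicate's best-ranked regions (points) in 5 equal segments of the X assembly, from the telomere end to the centromere end. The bars read 113, 116, 81, 79 and 38, and all 3 replicates are lowest in the last segment.

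Gene lists, chosen with earlier results of these data known, were read against the 8.33% of X genes with a promoter summit. Of the 14 X genes in the list of cytoplasmic ribosomal proteins, which may not be complete, 9 had one. The strongest were RpS10b with a pooled value of 223 and replicate values of 60.4, 81.0 and 100, and RpS15Aa with 219 and values of 57.4, 73.4 and 89.9. RpS19a had 209 pooled and 56.8, 64.3 and 86.1, and RpL17 had 194 pooled and 46.2, 64.6 and 87.6. By rank, which can be set side by side, RpS10b stood at 1880, 838 and 332 in replicates 1, 2 and 3. RpL22, named after its values were seen, stood at 1307, 1423 and 1815, so the 9 genes did not share 1 order of replicates. The summits of the 4 strongest lay 3 to 94 bp from the start. Of the 11 mitochondrial ribosomal protein genes 1 had a summit, mRpL33, and it is the same summit as that of the norpA promoter, with 153.

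Among 18 nervous system genes, 5 had a promoter summit. elav, an RNA-binding protein of neurons, had 469 pooled and 173, 165 and 129 in the replicates. dnc, the cAMP phosphodiesterase gene known from learning mutants, had 361 pooled and 97.3, 150 and 115. Fas2, an adhesion molecule of axons, had 207, and Ten-a, a teneurin of synaptic partner matching, had 183 at a promoter and 338 in an intron. mnb, a DYRK kinase gene, had 198 in an intron. These promoter regions of elav, dnc, Fas2 and Ten-a were held by all 3 replicates, while that of norpA, with 153, was held by 2. Of 11 chromatin regulators 2 had a promoter summit, the tandem pair ph-p and ph-d described above.

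Among 12 genes of the ecdysone response and metamorphosis, usp alone had a promoter summit. usp encodes the partner of the ecdysone receptor, and its region had 137 pooled, 29.3, 50.02 and 50.07 in the replicates, and was shared with the starts of Actn and CG4313. Hr4 held 6 intron summits. br, an early ecdysone response gene, held no thresholded region: the strongest pooled region within it had 131 and ranked 2538th. Of 8 genes of Notch, Wnt and Hedgehog signalling, sgg, the fly GSK-3 gene, had a promoter summit with 373 pooled and 129, 127 and 108 in the replicates. The Notch gene N had an intron summit with 207 pooled and 63.0, 88.9 and 59.5.

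Among 12 patterning genes, sd, a TEAD-family transcription factor gene of the wing, had a promoter summit with 169. Bx, ct and bi had intron summits, of which the strongest had 230 and 179 in Bx and ct. Bx encodes an LMO protein and ct a homeodomain protein. Of 7 muscle and cytoskeleton genes, sqh, the regulatory light chain of nonmuscle myosin, had a promoter summit with 155, and sn, the fascin gene, an intron summit with 275.

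Among 10 genes of JAK/STAT signalling and X counting none had a promoter summit, and Sxl, the switch gene of sex determination, had an intron summit with 169 pooled and 52.9, 78.7 and 36.3 in the replicates, held by 1 of them. With 10 genes, these counts are near the background of X genes. mof had none. The nearest thresholded region lay 5959 bp from lncRNA:roX1 and 18496 bp from lncRNA:roX2. None of the 4 achaete-scute genes and none of the 25 chemosensory receptor genes on X had a summit at a promoter or between their ends.

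Short motifs occurred at similar shares on X and on the autosomes. Within 100 bp of the summit on either strand, TGTTTAC or TATTTAC occurred in 11.7% of X regions and 12.7% of autosomal ones, beside 8.42% and 8.94% of all windows of 201 bp on X and on the autosomes. GAGAG, the core of GAGA factor sites, occurred in 32.8% and 33.4%, beside 21.5% of windows on both, and in the replicates' best-ranked regions its X share was higher by 1.81, 0.609 and 2.63 points (exact sign permutation, p = 0.25). GAGAGAGA, which contains GAGAG, occurred in 5.85% and 6.30%, beside 1.54% and 1.04%. CACACACA occurred in 6.56% and 6.35%, beside 5.77% and 3.74%. TATCGATA, the palindrome of DREF sites, occurred in 1.87% and 1.83%, beside 0.706% and 0.534%. In the replicates' best-ranked regions CACACACA was higher on X by 1.57, 0.213 and 2.89 points, and TATCGATA by 0.351, 0.447 and 0.435 points. For each of these 2 motifs the exact sign permutation gave p = 0.25. GAGAGAGA differed by −0.703, −0.809 and 2.41 points. The forkhead difference had the same sign in the best-ranked regions of 3 of 3 replicates (−2.42, −2.14 and −2.10 points; exact sign permutation, p = 0.25), and it turned to 1.77 points in favour of X within the promoter class. GC content around the summit averaged 38.4% on X and 37.97% on the autosomes, below the 42.5% and 42.1% of all windows. By replicate it was higher on X by 0.550, 0.510 and 0.905 points (exact sign permutation, p = 0.25).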

How the data were processed

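FoxP-eGFP was mapped by chromatin immunoprecipitation and sequencing of sonicated fragments of 200 to 800 bp, per the labels. File sheets deposited by the authors say that each replicate list came from that replicate's reads and the pooled list from all 3, with 1 shared control. The aligner, peak caller and settings were not given in the sources used here. Each region carries a signal value, a score deposited by the authors with no stated scale, and a −log10 q-value, also deposited, that was set aside. The thresholded list equals the 2415 highest-scoring regions of the pooled list. Replicate lists held 30000, 24326 and 22698 regions. Read depths are unknown.

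Coordinates are dm6, 1-based, and gene models are Ensembl release 115 (BDGP 6.54). Older symbols of 4 genes in the lists were updated by hand to the annotation. X was compared with the autosomes within each replicate's 2415 best-ranked regions, and the 3 differences were tested with an exact 2-sided sign permutation (numpy 2.4.6, scipy 1.17.1). These 2415 were counted with mitochondrial regions included, which were then set aside. Intervals are 95% Clopper-Pearson and cover counting error over regions only. Lists overlap where regions share at least 1 bp. Overlap, class and permutation steps were tested on simulated data. Text names the 20 strongest X regions, up to 4 members of each list with a promoter summit and up to 2 with an intron summit, the 5 X genes with most summits, and the 3 X regions on either side of the threshold. Alternatives were promoter and motif windows, other counts of regions, overlap rules, the dm3 lists and leaving out each replicate, which keeps regions held by both others. Members, lists and measures were chosen with earlier results of these data known.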

Additional observations from a re-analysis of the deposited data

How the results depend on the processing

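Of 108 recomputed values, 71 moved by less than the standard deviation over replicates and 37 by more. The direction changed in 22. These were values of the support, spacing and signal comparisons (4 each), of genes (1), and of the motifs GAGAG (4), GAGAGAGA (2), TATCGATA (2) and forkhead (1), and none was a class or shared-promoter difference. The X share of regions, the signal ratio, the support, spacing and gene differences stayed within that standard deviation under every alternative run. For support this limit was wide, 6.58 points, and came from another measure, the share held by each replicate. The difference in the share held by all 3 was 1.63 points and ran from −1.54 to 6.74 under the alternatives, so staying within the limit does not show that it was stable. The promoter difference of X minus autosomes was −8.33 points with a 200 bp window, −7.24 in the better-ranked 1207 regions, −6.54 in regions held by all 3 replicates and between −6.26 and −5.08 without 1 replicate. The intron difference was 12.4 with a 200 bp window. The difference outside genes was −4.66 in the better-ranked 1207, −4.32 in regions held by all 3, and −5.97 to −4.67 without 1 replicate. The difference in shared promoters, whose alternatives were all added after seeing the data, was −9.91 and −7.51 with windows of 200 and 1000 bp, −17.8 in the better-ranked 1207, −16.7 in regions held by all 3, and −15.8 to −13.7 without 1 replicate.

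Motif differences were small and less stable. The forkhead difference was −0.139 and −4.14 with windows of 50 and 150 bp, −2.24 in regions held by all 3, −3.08 to −0.628 without 1 replicate, and reversed to 1.77 within promoters. GAGAG differed by −5.03 at 50 bp, by 4.66 in regions held by all 3 and by 2.44 to 3.18 without 1 replicate. GAGAGAGA differed by 1.54 at 150 bp and CACACACA by 1.68 within promoters. TATCGATA differed by −0.985 at 50 bp, 0.469 in regions held by all 3, −0.384 within promoters and 0.311 to 0.612 without 1 replicate. The cause was not tested. Dropping a replicate selects regions by the other 2, while their calls still come from the pooled reads. Samples could not be paired between groups because there is only 1 group. X and autosomes were compared within each replicate. With 3 replicates the exact sign permutation cannot go below 0.25, and unknown read depths leave the precision of single regions unknown.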

Other observations

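The nearest thresholded region to w, the white eye-colour gene, lay 3133 bp away with a signal value of 249, and the nearest region of the pooled list lay 154 bp away with 68.4. For y, the yellow pigment gene, the nearest thresholded region lay 92552 bp away, and a pooled region within the gene had 40.2 and ranked 20760th. Of the dosage compensation RNAs, a pooled region within lncRNA:roX2 had 42.6 and ranked 18576th, and one 5040 bp from lncRNA:roX1 had 59.0. All of these pooled regions lie below the threshold.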
